A study of Mus musculus with 18 samples.

Results

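Of the 21127 autosomal regions deposited for the H3K4me3 comparison of Notch1-driven T cell leukaemia with normal thymocytes, 1820 (8.61%) shared at least 1 bp with a region deposited for the H3K27me3 comparison of the same cell types. These 1820 H3K4me3 regions are the places described here. They were chosen by position alone, from the regions that both comparisons list, and the display colours of both marks come from the same comparisons. The counts of colours are therefore descriptions and carry no test. On the other side, 1861 of the 22579 autosomal H3K27me3 regions were met, of which 1767 met 1 H3K4me3 region, 90 met 2 and 4 met 3.

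The tumours were Notch1-IC over-expressing tumors (T-ALL), that is, mouse T cell acute lymphoblastic leukaemia with an excess of the intracellular part of Notch1. They were compared with CD4+/8+ Double Positive (DP) cells from normal thymus. Each mark was measured by chromatin immunoprecipitation and sequencing (ChIP-seq) in 2 T-ALL and 2 DP libraries, with 2 micrococcal nuclease-treated inputs for each cell type. Notch1 was measured in 1 T-ALL library with 1 sonicated input, and no DP library of Notch1 was used here. Strain, age, the promoter driving Notch1-IC and the origin of the replicates are not given in the labels.

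H3K4me3, trimethylation of lysine 4 of histone H3, sits on the nucleosomes at active and poised promoters. H3K27me3 is placed by Polycomb repressive complex 2 and marks genes held silent. Promoters that carry both are called bivalent, a state first described at developmental genes of embryonic stem cells, and they usually settle into one mark or the other as cells differentiate. H3K9ac is an acetylation of active promoters and enhancers. Notch1-IC enters the nucleus after Notch1 is cleaved and activates transcription together with the DNA-binding factor RBPJ.

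Each deposited region is drawn in red or green, and which of them stands for more of a mark in T-ALL is not stated in the sources used here. Red and green are used below only as names, and a shared colour is not known to mean the same direction for both marks. No region carries a fold change, a depth or a value per library, so no spread between replicates could be computed. The lists hold regions that differ between cell types, so a promoter that carries both marks without a difference is not among them. ChIP-seq of bulk cells also cannot tell both marks on the same nucleosome from marks in different cells. The positions are on mm9, for which no gene annotation or genome sequence was used here, so places are given by coordinates and not by gene.

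Most shared places were red in both marks. A red H3K4me3 region met only red H3K27me3 in 1433 cases, 78.7% of the 1820 (95% Clopper-Pearson interval 76.8 to 80.6, covering counting error only). Green H3K4me3 met only red H3K27me3 in 179 cases (9.84%, 8.51 to 11.3). Red H3K4me3 met only green H3K27me3 in 106 cases (5.82%, 4.79 to 7.00), and both were green in 54 (2.97%, 2.24 to 3.85). The remaining 48 regions met H3K27me3 of both colours, 41 of them red H3K4me3 and 7 green.

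The 2 H3K4me3 colours entered this set to different extents. Red H3K4me3 regions shared bases with H3K27me3 in 1580 of 11075 cases (14.3%, 13.6 to 14.9), and green ones in 240 of 10052 (2.39%, 2.10 to 2.71). Red made up 86.8% of the shared places and 49.2% of the other autosomal H3K4me3 regions. In the full autosomal lists red made up 52.4% of H3K4me3 and 57.2% of H3K27me3 regions. Since these shares come from the comparisons that defined the set, they are given without a test.

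The share of places with the same colour in both marks differed between red and green H3K4me3. Among red H3K4me3 regions that met a single H3K27me3 colour, 1433 of 1539 met red (93.1%, 91.7 to 94.3). Among green ones, only 54 of 233 met green (23.2%, 17.9 to 29.1), so that green H3K4me3 met red H3K27me3 more often than green. Counted together, 1487 of 1772 places (83.9%, 82.1 to 85.6) had the same colour in both marks.

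**Figure D1:**
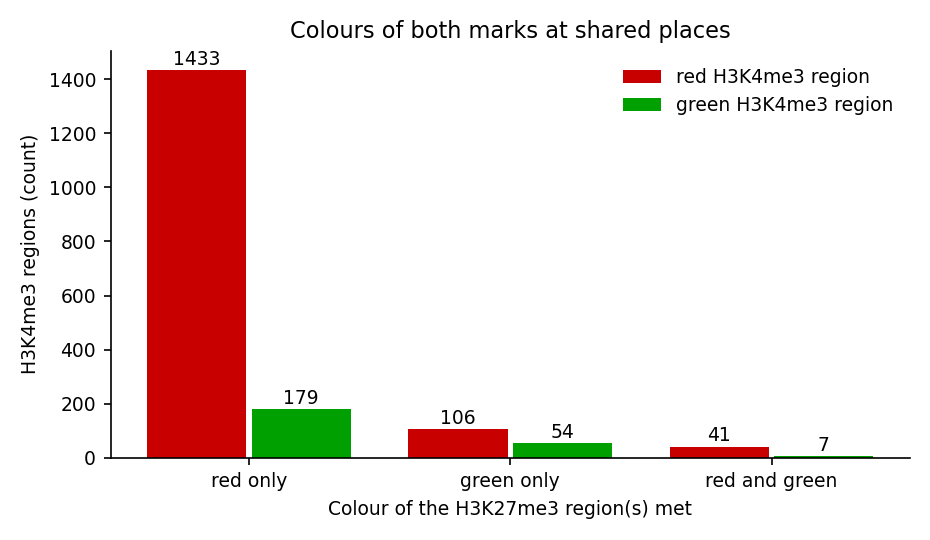
Number of autosomal H3K4me3 regions (bars, count) by the colour of the H3K27me3 region or regions they met (horizontal axis) and by their own colour. The bar for red in both marks, 1433 regions, stands far above the other 5, which hold 7 to 179 regions.

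The way in which the marks lay over each other differed between colour pairs. Where both were red, H3K27me3 covered a median of 90.0% of the H3K4me3 region (quartiles 61.3 to 100), and 580 of 1433 regions (40.5%) were covered from end to end. Where red H3K4me3 met green H3K27me3, the median was 30.9% (17.2 to 49.4) and 4 of 106 regions were covered from end to end. The H3K27me3 regions of those 106 places mostly lay over a side of the H3K4me3 region. They reached its centre in 22 of 106 cases (20.8%, 13.5 to 29.7), against 1186 of 1433 (82.8%, 80.7 to 84.7) where both were red.

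Green H3K4me3 regions lay between these extremes. With red H3K27me3 the median cover was 60.6% (34.9 to 92.0), and the centre was covered in 101 of 179 (56.4%, 48.8 to 63.8). With green H3K27me3 the median cover was 65.9% (43.3 to 88.8), and the centre was covered in 37 of 54 (68.5%, 54.4 to 80.5). The median width of the H3K4me3 regions was 700 bp where both were red, 850 bp for red with green H3K27me3, 675 bp for green with red and 625 bp where both were green.

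Position by position, H3K27me3 cover around red-red places was highest next to the H3K4me3 centre (82.9% at 50 bp) and was 50.0% at 500 bp and 23.7% at 1000 bp. For red H3K4me3 with green H3K27me3 it was 20.8% at the centre, was highest at 600 bp (54.7%) and was still 40.6% at 1000 bp. For green H3K4me3 with red H3K27me3 it was nearly level over the first 500 bp, with 56.4% at the centre, 61.5% at 250 bp and 59.5% at 500 bp. Green-green places had their highest cover at the centre (68.5%) and 40.7% at 500 bp. Cover was thus highest at or next to the H3K4me3 centre in the same-colour pairs. For red H3K4me3 with green H3K27me3 the centre was left uncovered in most cases. Among green H3K4me3 regions the interval for a covered centre was 54.4 to 80.5% with green H3K27me3. It overlapped the 48.8 to 63.8% with red H3K27me3. Where the centres of the H3K27me3 regions lay was not tested.

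**Figure D2:**
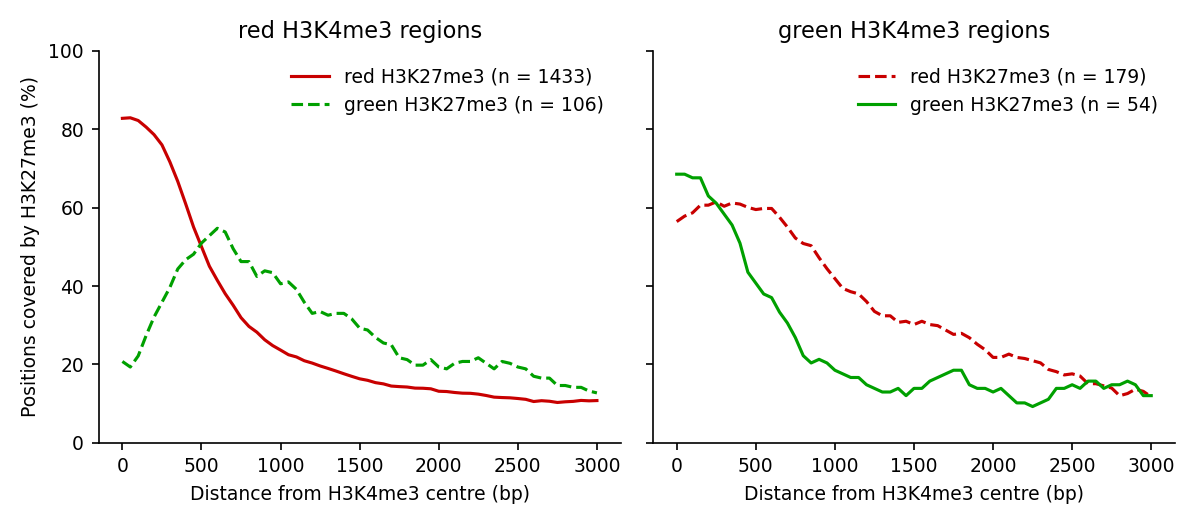
Share of positions covered by H3K27me3 of the colour met (vertical axis, %) against distance from the centre of the H3K4me3 region (horizontal axis, bp, both sides averaged), for red (left) and green (right) H3K4me3 regions. Solid lines are same-colour pairs and dashed lines opposite-colour pairs; the dashed green line is low at the centre (20.8%) and highest at 600 bp (54.7%).

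Regions near the limit of the rule were few. The smallest overlap was 25 bp, the step of the lists, and 29 of the 1820 regions shared only that much. Among these, 14 were red H3K4me3 (11 with red and 3 with green H3K27me3) and 15 were green (12 with red and 3 with green). Just outside, 18 H3K4me3 regions abutted an H3K27me3 region without sharing a base and 23 lay 25 bp from one. Of these 41, red H3K4me3 regions lay next to red H3K27me3 in 14 and to green in 15 cases, and green ones next to red in 10 and to green in 2. The other H3K4me3 regions as a whole lay a median of 77700 bp from the nearest H3K27me3 region.

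Wider red regions were more often in the set. Among red H3K4me3 regions the share was 7.94% up to 500 bp, 14.8% above 500 and up to 1000 bp, 28.6% above 1000 and up to 2000 bp, and 14 of 24 above 2000 bp. Among green ones it was 2.25%, 2.38%, 2.33% and 3.96% in the same width classes. The step between the colours was thus present in every width class.

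Notch1 peaks, which the overlap rule did not use, were frequent where both marks were red. The comparison was chosen with earlier results of these data known. Among all autosomal H3K4me3 regions 9.56% shared bases with a Notch1 peak. The share was 532 of 1433 (37.1%, 34.6 to 39.7) at red-red places, against 1355 of 9495 (14.3%, 13.6 to 15.0) in red H3K4me3 regions that met no H3K27me3. The intervals did not overlap. Regions on a chromosome are not independent replicates and Notch1 was measured in 1 library, so no test between these sets was made.

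The other pairs had smaller Notch1 shares. Red H3K4me3 with green H3K27me3 held a peak in 16 of 106 cases (15.1%, 8.88 to 23.4), an interval that spans the 14.3% of red regions without H3K27me3. Of the 41 red regions that met both H3K27me3 colours, 13 held a peak (31.7%, 18.1 to 48.1). That interval spans the 37.1% of red-red places. Green H3K4me3 with red H3K27me3 held a peak in 12 of 179 cases (6.70%, 3.51 to 11.4), against 90 of 9812 (0.917%, 0.738 to 1.13) in green regions that met no H3K27me3. Green-green places held a peak in 1 of 54 cases (1.85%, 0.0469 to 9.89).

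The larger Notch1 share of red-red places was present in each width class with enough regions. Up to 500 bp it was 65 of 194 (33.5%, 26.9 to 40.6), against 8.87% (7.77 to 10.1) of other red regions. Above 500 and up to 1000 bp it was 36.8% (33.9 to 39.8), against 16.2% (15.3 to 17.1). Above 1000 and up to 2000 bp it was 77 of 181 (42.5%, 35.2 to 50.1), against 15.9% (13.0 to 19.2). Above 2000 bp there were 9 red-red and 10 other red regions, too few to compare.

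At red-red places the Notch1 peak nearly always touched the bases that the marks shared. This was so in 527 of the 532 places with a peak, and in 367 of them the centre of a peak lay in the shared bases. A peak centre lay anywhere in the H3K4me3 region at 421 red-red places. Since H3K27me3 covered a median of 90.0% of the 1433 red-red regions, a peak meeting one would mostly touch shared bases wherever it lay. Whether peaks favoured the shared bases was not tested. Of the 12 green H3K4me3 places with red H3K27me3 and a peak, 10 had a peak touching shared bases but only 1 had a peak centred there. Over all places, 573 of the 14541 autosomal Notch1 peaks were involved, with 566 H3K4me3 regions holding 1 peak and 9 holding 2.

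Seen from H3K27me3, red regions that met red H3K4me3 held a Notch1 peak in 587 of 1451 cases (40.5%, 37.9 to 43.0). Red H3K27me3 regions without H3K4me3 did so in 2591 of 11273 (23.0%, 22.2 to 23.8). Their median widths differed, at 925 bp for those that met red H3K4me3 and 725 bp for those without H3K4me3, and the part of width in this difference was not tested. Red H3K27me3 regions that met only green H3K4me3 held a peak in 17 of 164 cases (10.4%, 6.16 to 16.1), a smaller share than those without H3K4me3 although their median width was 1025 bp. Green H3K27me3 regions held a peak in 22 of 157 cases (14.0%, 8.99 to 20.4) where they met red H3K4me3, and in 85 of 9445 (0.900%, 0.719 to 1.11) where they met none.

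**Figure D3:**
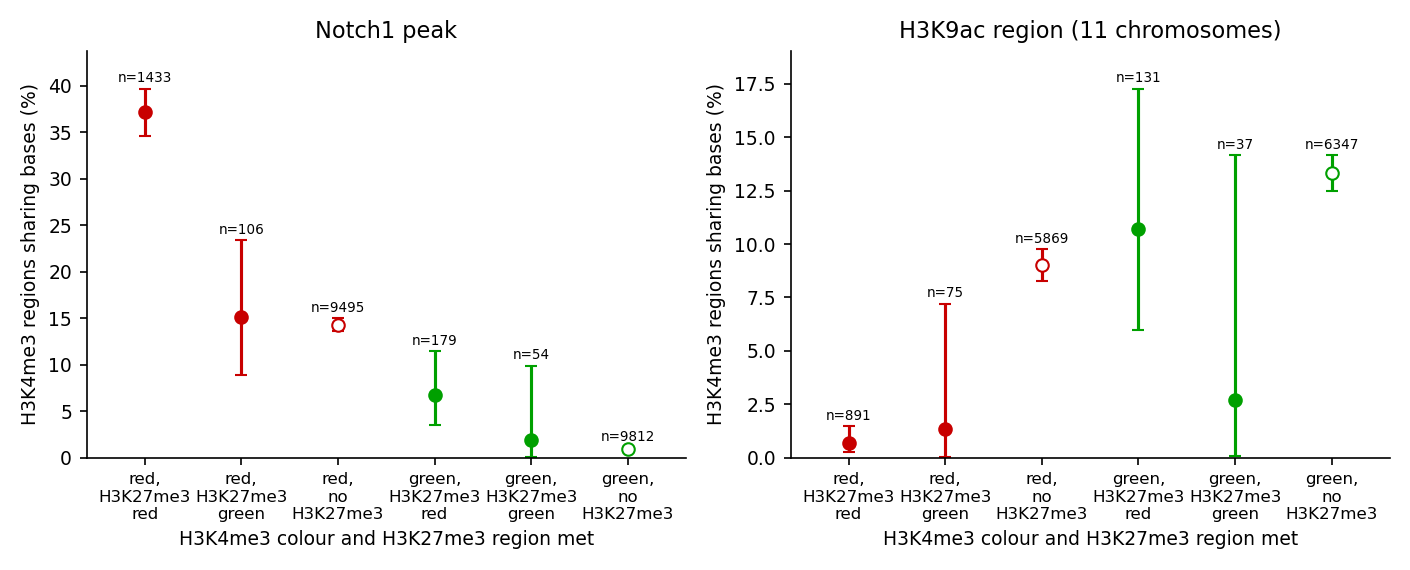
Share of H3K4me3 regions (vertical axes, %) that shared bases with a Notch1 peak (left) or an H3K9ac region (right, 11 chromosomes), by H3K4me3 colour and the H3K27me3 colour met; bars are 95% Clopper-Pearson intervals and open points are regions that met no H3K27me3. The sets that met both H3K27me3 colours are not drawn; of the 6 sets drawn, red-red places have the highest Notch1 share (37.1%) and the lowest H3K9ac share (0.673%), whose interval overlaps those of red H3K4me3 with green H3K27me3 and of green-green places.

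Regions of the H3K9ac comparison, also not used by the overlap rule, were rarely met at red-red places. H3K9ac without a listed difference between T-ALL and DP is not counted here. The H3K9ac list has regions on 11 chromosomes only, where 1161 of the 1820 places lie, and the values that follow are for those chromosomes. An H3K9ac region was met by 10.4% of all H3K4me3 regions there. At red-red places it was met in 6 of 891 cases (0.673%, 0.248 to 1.46), against 528 of 5869 (9.00%, 8.28 to 9.76) in red regions without H3K27me3. Of the 6, 4 met only green H3K9ac and 2 only red. Of the 528, 281 met only green H3K9ac, 246 only red and 1 both. Red H3K4me3 with green H3K27me3 met H3K9ac in 1 of 75 cases (1.33%, 0.0338 to 7.21), and red regions meeting both H3K27me3 colours in 0 of 22 (0 to 15.4). No test between these sets was made, for the reason given for Notch1.

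Green H3K4me3 places with red H3K27me3 met H3K9ac in 14 of 131 cases (10.7%, 5.97 to 17.3), against 845 of 6347 (13.3%, 12.5 to 14.2) for green regions without H3K27me3, and the intervals overlapped. All 14 met only green H3K9ac. Among green regions without H3K27me3, 453 met only green H3K9ac, 391 only red and 1 both. At these 14 places the 3 marks were therefore green for both active marks and red for H3K27me3. Green-green places met H3K9ac in 1 of 37 cases (2.70%, 0.0684 to 14.2), a green region. Width moved with this measure too. Among green H3K4me3 with red H3K27me3, 8 of 19 regions above 1000 and up to 2000 bp met H3K9ac and 3 of 89 above 500 and up to 1000 bp did, against 23.1% and 11.2% of green regions without H3K27me3 in those classes.

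Among the red H3K4me3 regions both readouts differed with the distance from H3K27me3. The share with a Notch1 peak was 35.5% (33.1 to 37.9) for the 1580 that shared bases and 20.0% (16.1 to 24.3) for the 385 within 1 kb without sharing any. It was 21.6% from 1 to 5 kb, 19.2% from 5 to 20 kb, 13.8% from 20 to 100 kb and 10.4% (9.44 to 11.5) beyond 100 kb. The share with H3K9ac ran the other way, at 0.709% (0.285 to 1.45) where bases were shared, 5.06% (2.72 to 8.49) within 1 kb, 3.55% from 1 to 5 kb, 7.03% from 5 to 20 kb, 8.98% from 20 to 100 kb and 11.6% (10.3 to 13.1) beyond 100 kb. With both H3K27me3 colours pooled, the largest step in each lay between sharing bases and lying next to H3K27me3. Split by H3K27me3 colour, the Notch1 share fell over this step only with red, from 37.1% (34.6 to 39.7) to 20.8% (15.9 to 26.5). With green it was 15.1% (8.88 to 23.4) where bases were shared and 18.6% (12.6 to 25.9) within 1 kb. The H3K9ac share rose from 0.673% to 5.73% with red, and with green from 1.33% (0.0338 to 7.21) to 4.00% (1.10 to 9.93). With green a larger H3K9ac step lay further out, from 7.59% at 20 to 100 kb to 12.0% beyond 100 kb.

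Among green H3K4me3 regions the shares within 1 kb rest on few regions. The Notch1 share was 5.83% (3.23 to 9.59) where bases were shared, 3.40% (1.11 to 7.76) within 1 kb, and between 0.770% and 1.39% in each class beyond 1 kb. Their H3K9ac share was 8.67% (4.93 to 13.9) where bases were shared, 4.00% (1.10 to 9.93) within 1 kb and between 13.2% and 14.1% in each class beyond 1 kb.

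**Figure D4:**
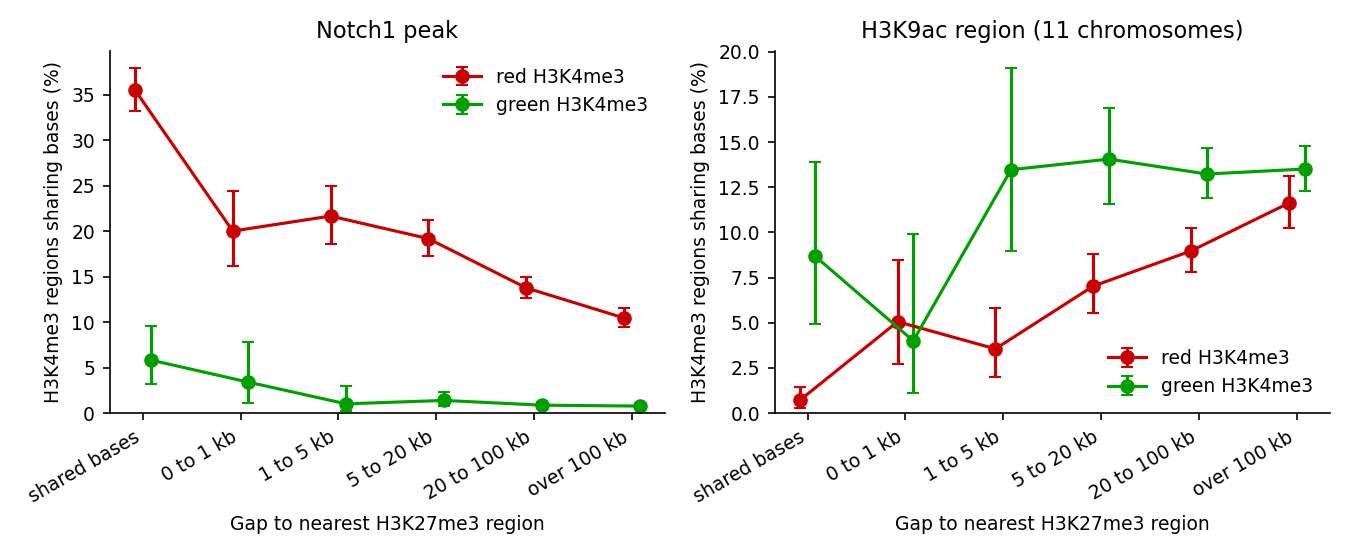
Share of H3K4me3 regions (vertical axes, %) with a Notch1 peak (left) or an H3K9ac region (right, 11 chromosomes), by the gap to the nearest H3K27me3 region of either colour (horizontal axis), for red and green H3K4me3; bars are 95% Clopper-Pearson intervals. Red regions that share bases stand at 35.5% for Notch1 and 0.709% for H3K9ac, and those beyond 100 kb at 10.4% and 11.6%.

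The H3K4me3 surroundings of red places also differed from those of other red regions. A green H3K4me3 region lay within 1 kb of 58 of the 1433 red-red places (4.05%, 3.09 to 5.20), against 1687 of 9495 red regions without H3K27me3 (17.8%, 17.0 to 18.6). A second red region lay within 1 kb of 169 red-red places (11.8%, 10.2 to 13.6), against 669 other red regions (7.05%, 6.54 to 7.58). Green places with red H3K27me3 had a red neighbour within 1 kb in 28 of 179 cases (15.6%, 10.7 to 21.8), against 19.3% (18.5 to 20.0) of green regions without H3K27me3. These neighbours belong to the H3K4me3 list that defined the set, so the shares are a description.

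The places were mostly scattered. Joined where they lay within 5 kb of each other, the 1820 regions formed 1614 groups, of which 1444 held 1 region, 146 held 2, 18 held 3, 4 held 4, 1 held 6 and 1 held 8. The 170 groups of 2 or more held 376 of the 1820 regions, and in 48 of these groups red and green H3K4me3 regions occurred together.

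The 2 largest groups were neighbours on chromosome 1. The stretch from 90132426 to 90163400 spanned 30975 bp and held 14 of the places, with 15 red and 2 green H3K4me3 regions and 14 red and 1 green H3K27me3 regions in all. Its right-hand group, from 90148351 to 90163400, held 7 red and 1 green H3K4me3 places, all on red H3K27me3. In it, 3 red regions shared bases with a Notch1 peak each, the widest of these peaks running from 90152426 to 90153675. A single H3K27me3 region, from 90151676 to 90154575, met 3 red H3K4me3 regions there. The left-hand group, from 90132426 to 90142075, held 5 red and 1 green places and no Notch1 peak. In both groups the green H3K4me3 region was the leftmost, at 90132426 to 90132950 and at 90148351 to 90148850.

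Of the 4 groups that held 4 places, 3 were uniform in H3K4me3 colour and the last, on chromosome 16, held 1 red and 3 green regions. On chromosome 1 from 74438251 to 74442675, 4 red H3K4me3 regions met 2 red H3K27me3 regions, and on chromosome 11 from 74978751 to 74983825, 4 more red ones met 2 red H3K27me3 regions that covered each of them from end to end. On chromosome 7 from 117768776 to 117773525, 4 green H3K4me3 regions of 525 to 1275 bp met 3 red H3K27me3 regions, which covered 81.0% to 100% of each. None of the 3 uniform groups held a Notch1 peak.

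The window on which the authors' files open, chromosome 16 from 30061173 to 30072152, holds that group of mixed colour. All 4 of its H3K4me3 regions belong to the set. A red region lay wholly in red H3K27me3, from 30064001 to 30064850. To its right, the 3 green regions shared 1050 bp, 500 bp and 325 bp with red H3K27me3. The first and the second of these met both a green H3K9ac region and the same Notch1 peak, which shared 25 bp with the first and 325 bp with the second. Of the 1161 places on the 11 chromosomes with H3K9ac regions, 4 met both a Notch1 peak and an H3K9ac region, and these were 2 of them. The other two were red H3K4me3 with red H3K9ac, on chromosome 3 from 65462576 to 65463850, at the edge of a green H3K27me3 region (50 bp shared), and on chromosome 11 from 43342276 to 43343000, with red H3K27me3 (275 bp shared).

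**Figure D5:**
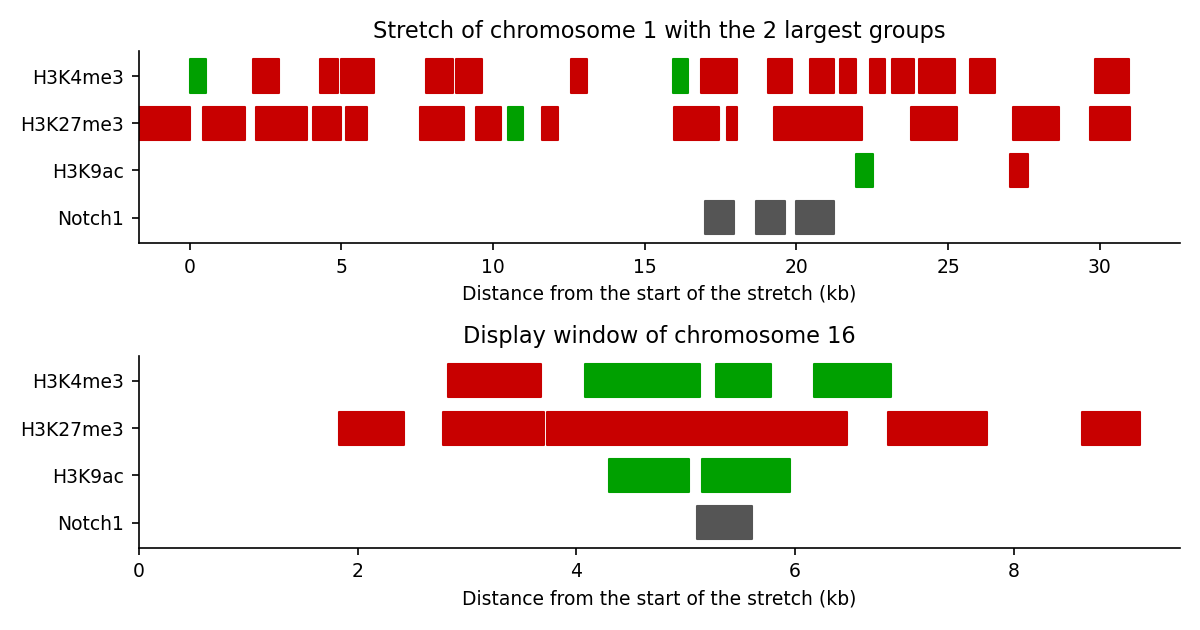
Deposited regions (boxes in their display colour, Notch1 peaks in grey) in the stretch of chromosome 1 with the 2 largest groups and in the display window of chromosome 16, against distance from the start of each (horizontal axes, kb). In the first, 14 H3K4me3 regions share bases with H3K27me3, and 3 green H3K4me3 regions share bases with red H3K27me3 in the second.

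The widest places of each colour pair show the layouts. The widest of all, red in both marks, ran for 3750 bp on chromosome 13 from 120276526 to 120280275. It shared 3150 bp with 2 red H3K27me3 regions and held a Notch1 peak from 120277201 to 120278125 inside their shared bases. Another red-red place, on chromosome 3 from 38784151 to 38786675 (2525 bp), lay wholly inside an H3K27me3 region of 3625 bp, with a Notch1 peak of 1325 bp inside both. A region of 2650 bp on chromosome 12, from 88223251 to 88225900, shared 1825 bp (68.9%) with red H3K27me3 and held no peak. The other two of the widest 5, from 76813576 to 76816375 on chromosome 14 and from 63867951 to 63870500 on chromosome 9, shared 550 bp and 1900 bp and held none either.

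Red H3K4me3 with green H3K27me3 was widest on chromosome 11. Neighbouring red regions from 120094801 to 120096625 and from 120096651 to 120099675, 1825 bp and 3025 bp wide, shared a green H3K27me3 region of 875 bp that straddled the gap between them. The first of them also held a Notch1 peak of 1325 bp, from 120094976 to 120096300. The others of the widest 5 shared 150 to 325 bp with green H3K27me3 and held no peak. The first of these lay on chromosome 17 from 79753426 to 79755550. Another ran from 12947926 to 12949775 on chromosome 12, and the last, on chromosome 19, from 57684651 to 57686450.

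Green H3K4me3 with red H3K27me3 was widest on chromosome 5 from 121161551 to 121164425 (2875 bp, 750 bp shared with 2 red regions). On chromosome 11 from 45869476 to 45872250 a green region of 2775 bp shared 1625 bp with red H3K27me3 and held a green H3K9ac region of 1825 bp that began at the same base. A second green place on that chromosome, from 117826976 to 117829425, shared 425 bp with red H3K27me3 and met a green H3K9ac region at its right end. On chromosome 12 from 112721001 to 112723575 red H3K27me3 overlapped both ends of the green region, by 400 bp and 575 bp. On chromosome 19 from 58525101 to 58527925 it overlapped the right end by 350 bp. None of these 5 held a Notch1 peak.

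Green-green places included a pair on chromosome 9. The regions from 123832551 to 123834425 and from 123842726 to 123845025 shared 1450 bp and 1500 bp with green H3K27me3, and the second met a green H3K9ac region of 600 bp. The widest, 2650 bp on chromosome 5 from 151923701 to 151926350, held a green H3K27me3 region of 500 bp in its interior. None of the 5 widest held a Notch1 peak; the other two ran from 96104201 to 96105775 on chromosome 3 and from 97684601 to 97686025 on chromosome 16.

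Where an H3K4me3 region met both H3K27me3 colours, it met 1 region of each. The widest was red, on chromosome 19 from 28752126 to 28754675, and shared 525 bp with green H3K27me3 in its left part and 850 bp with red in its right part. On chromosome 4 from 154334151 to 154336175 green H3K27me3 overlapped the left end by 50 bp, red lay inside for 650 bp, and a Notch1 peak of 975 bp also lay inside. The remaining 3 of the widest were a red region of chromosome 10, from 76879351 to 76881425, and a green and a red region of chromosome 1, at 90116476 to 90118525 and 166387476 to 166389200. They held no peak, and each met the green H3K27me3 region on its left.

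Of the 9 places with 2 Notch1 peaks, 3 are described by the rule for named regions, and all 3 were red in both marks. On chromosome 2 from 101636901 to 101637500 peaks overlapped both ends of a region of 600 bp that lay inside red H3K27me3 of 2050 bp. On chromosome 4 from 49858126 to 49858950 a peak of 600 bp lay inside and another of 1100 bp overlapped the left end by 50 bp. On chromosome 9 from 56467476 to 56468275 peaks overlapped both ends, by 125 bp and 575 bp.

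All 19 autosomes held such places. Their share of the H3K4me3 regions ran between 6.65% (4.89 to 8.79) on chromosome 16 and 10.6% (9.18 to 12.2) on chromosome 2. The red-red pair was the most frequent on each autosome, with 66.3% of the places on chromosome 9 as the lowest share and 88.4% on chromosome 10 as the highest. Places with the same colour in both marks, among those meeting 1 H3K27me3 colour, ran between 73.8% on chromosome 9 and 93.5% on chromosome 10. The share with a Notch1 peak ran between 26.3% on chromosome 15 (21 of 80) and 40.3% on chromosome 7 (50 of 124).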

How the data were processed

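ChIP-seq was made from T-ALL and DP cells (18 libraries). BWA, NCBIM37 and mm9 are named, with no settings, per the submitters' processing notes. How regions were called, at which thresholds, with which inputs and from which replicates is not given in the sources used here. There are 4 lists of regions deposited by the authors, whose BED score is 1000 in every row and measures nothing. All positions are multiples of 25 bp, and the depth behind a region is unknown. Start positions were converted to 1-based. The gene and promoter tables at hand are on another build, so no region was given a gene or a sequence.

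Autosomal H3K4me3 regions sharing 1 bp or more with an H3K27me3 region were intersected with the Notch1 and H3K9ac lists (Python 3.11.15, pandas 2.3.3). The code was checked on simulated lists. Shares carry 95% Clopper-Pearson intervals (scipy 1.17.1). The display colours were read as 2 classes with no direction. No test was made, since no list gives values of single libraries and regions are not replicates.

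The regions, lists and comparisons were chosen with earlier results of these data known. Named regions are the 5 widest of each colour pair and of those meeting both colours, the 3 with most Notch1 peaks (ties by chromosome and start), those with Notch1 and H3K9ac, the 5 largest groups within 5 kb, and those in the display window. Alternatives were 50% of the region covered, 200 bp shared, regions at or above the median width, merging within 500 bp, peak centres, and wider Notch1 peaks.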

Additional observations from a re-analysis of the deposited data

Results flagged for a closer look

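The sex chromosomes lie outside the autosomal set. On X, 11 of 216 H3K4me3 regions (5.09%, 2.57 to 8.93) shared bases with one of 103 H3K27me3 regions. These rows were listed because the comparisons above do not use them and because the share is above the 1.39% that a count of 0 allows, a low bar. The autosomal share of 8.61% lies within the interval of X, so no difference between X and the autosomes is shown. That interval takes the regions as independent, although 8 of the 11 lie in a single stretch. Of the 11, 9 were red in both marks, 1 was green in both and 1 was green H3K4me3 with red H3K27me3. A single stretch of X, from 166411776 to 166437825, held 8 of the 9 red-red places, up to 5300 bp wide, which is wider than any autosomal place (3750 bp). None of the 11 met a Notch1 peak. On Y there were 59 H3K4me3 and 0 H3K27me3 regions.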

How the results depend on the processing

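Of 19 alternatives tried on 4 results, 11 left the value within its interval or, for the number of places, within 1.5 times. With 50% of the H3K4me3 region covered, 90.2% of places had the same colour in both marks and 34.0% held a Notch1 peak. With 200 bp shared, 86.5% had the same colour. With the narrower part of each list (below its median width) set aside, 852 places were left by construction, with 81.6% of the same colour and 35.0% holding a Notch1 peak. With the centre of the Notch1 peak inside, 24.6% held one, and with the wider Notch1 peaks alone 20.9%, both by construction lower than 31.6%. The alternatives for red-red places were added after seeing the data. Over 6 of them the Notch1 share ran between 24.8% and 40.9%, against 8.89% to 18.1% of other red regions. Over 5 of them the H3K9ac share ran between 0.224% and 0.815%, against 5.20% to 10.1%. No paired analysis was possible because single libraries have no values in the lists, and no replicate was left out for the same reason. Unknown depth, 1 Notch1 library and an H3K9ac list of 11 chromosomes limit every share given.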
